A study of Mus musculus with 2 samples.

Results

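The genes described here are 33 junction and identity genes of epithelium, found by gene symbol among the 22072 symbols of the deposited tables. They encode adhesion proteins, membrane proteases with their inhibitors, transcription factors, splicing regulators and a small number of other epithelial proteins. All 33 had a row in both tables, and the 48 transcript rows were summed per gene.

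Tongues were dissected from mixed-background mouse embryos of day 12 (E12). Mutant and control tongues of 3 pairs were pooled by genotype for RNA, which gave 1 library of each. The mutant was Osr1f/-; Wnt1cre, which carries a conditional and a null allele of the transcription factor gene Osr1 together with a Cre driven by Wnt1 sequences, active in the neural crest lineage. The control was Osr1f/+, with a conditional and a wild-type allele and no Cre named in its label. Both libraries therefore share the conditional allele, whereas the null allele and Cre are named for the mutant alone, and effects of these cannot be told apart. The surface epithelium of the tongue is not derived from neural crest, so its cells are outside the lineage that Wnt1cre marks, but they carry the null allele in the mutant.

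Epithelial cells are held together by junctions of several kinds. Adherens junctions are built on classical cadherins, desmosomes on desmosomal cadherins that plakoglobin, plakophilins and desmoplakin anchor to keratin filaments, and tight junctions on claudins that seal the space between cells. Transcription factors such as p63 and the Grainyhead-like proteins maintain the epithelial program, and the proteases matriptase and prostasin act at the cell surface under the control of Kunitz-type inhibitors. In the embryonic tongue these genes mark a thin covering epithelium over a large mass of mesenchyme and muscle.

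There was no replicate library, so no difference could be set against a spread between replicates and no test between genotypes was possible. Each ratio is the FPKM of the mutant library over that of the control library, where FPKM is the number of fragments scaled to transcript length and to the mapped total of the library. About 23100000 mapped reads lay behind the mutant library and 18900000 behind the control library, as estimated from the deposited coverage. A 95% counting interval was computed from approximate reads, and it covers counting error alone: the cDNA was amplified, so reads do not stand for separate molecules. A gene was called measured when its mean over both libraries was at least 1 FPKM. Osr1 itself had 18.4 FPKM in the mutant and 56.8 FPKM in the control library, a ratio of 0.325 (0.300 to 0.352), which follows the labels. Xist had 86.1 FPKM in the mutant and 61.1 FPKM in the control library, while the Y-linked Ddx3y had 8.40 FPKM in the mutant and 11.1 FPKM in the control library, so sex-linked genes differed too. Their part in the results was not tested.

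The epithelial genes were low to moderate in level and close between the libraries. Of the 33 genes, 29 were measured, with means over both libraries between 1.27 and 21.1 FPKM and between 25 and 1964 reads in a library. The other 4, Marveld3, Grhl1, Ovol1 and Elf3, lay between 0.445 and 0.783 FPKM. Of the 29 measured genes, 21 were lower and 8 were higher in the mutant library. That is 72.4% lower, against 48.9% of all 12178 measured genes, and 27.6% higher, against 51.1%. The median ratio was 0.950 (log2 −0.07), against 1.002 over all measured genes. Within 10% of each other were the levels of 18 of the 29, and within 20% those of 26, where the shares of all measured genes were 70.5% and 89.4%. Among measured genes in the members' range of mean level, the median ratio was 1.01 and 46.7% were lower. In a bulk sample of this kind, fewer epithelial cells and less RNA per epithelial cell cannot be told apart.

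At least 1.2-fold lower in the mutant library were 5 of 29 genes, Bnc1, St14, Spint1, Dsc2 and Pkp1, which is 17.2% against 5.12% of all measured genes. At least 1.2-fold higher was 1 gene, Cldn3, which is 3.45% against 6.99%. All 6 had a mean under 5 FPKM in these libraries. Among the 15 genes with a mean of at least 5 FPKM, ratios ran from 0.888 for Cdh1 to 1.11 for Dsg2. Of these 15, 11 were lower, where 50.2% of all genes at that level were lower. Of the 23 measured genes with a single transcript row, the counting interval lay wholly below 1 for 5 (21.7%, against 10.5% of all such genes) and wholly above 1 for none (0 of 23, against 10.2%). The 5 were Cdh1, Dsp, Dsc2, St14 and Bnc1.

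The main roles are set side by side here. The 16 measured junction genes had a median ratio of 0.928, with 12 lower and 4 higher. All 17 listed junction genes, measured or not, summed to 130.5 FPKM in the mutant and 136.2 FPKM in the control library. The 4 protease and inhibitor genes had a median of 0.933, with 2 on each side, and summed to 28.2 FPKM in the mutant and 27.3 FPKM in the control library. The 5 measured transcription factors had a median of 0.972, with 3 lower and 2 higher. In log2 this median was −0.04, but 0.07 with the 3 unmeasured factors included. All 8 listed factors, measured or not, summed to 26.2 FPKM in the mutant and 27.5 FPKM in the control library. Differences between these roles were not tested.

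**Figure D1:**
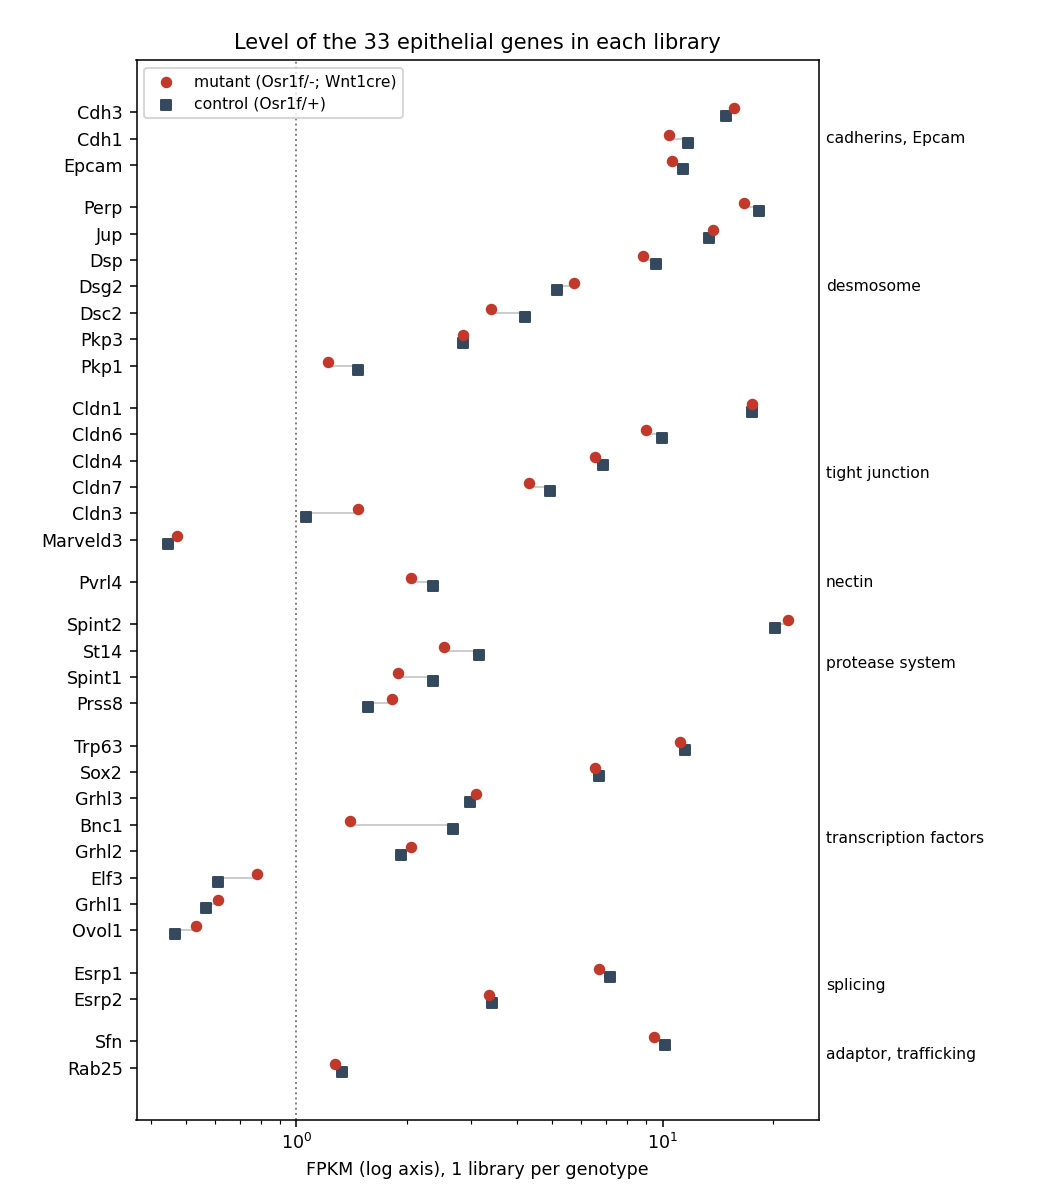
FPKM of each of the 33 genes on a log axis, with the mutant library as circles and the control library as squares, grouped by role, and a dotted line at 1 FPKM. The symbols of most genes lie close together, and the widest gap is that of Bnc1, at 1.401 FPKM in the mutant and 2.675 FPKM in the control library.

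Many promoters of these genes hold a short sequence that the choice of members did not use. RefSeq promoter windows of 300 bases (GRCm38.p6, 250 bases before to 50 after a start) were found for 18 of the 33 genes, in 20 windows. The E2-box CACCTG, searched on both strands, is the sequence to which the repressors Snai1, Snai2, Zeb1 and Zeb2 are known to bind in epithelial promoters. It was present in 11 of the 20 windows, which is 55%, against 20.2% of all 32851 windows. Among the 9690 windows at least as GC-rich as the median member window (59.8% G or C), 20.5% held it. The 11 genes were Cldn3, Cldn4, Cldn6, Cldn7, Dsp, Elf3, Epcam, Grhl3, Rab25, Sfn and Spint2. The Grainyhead-like motif AACCNGTT was found in Rab25 and Sfn, against 2.09% of all windows, and the TATA sequence TATAAA in 0 of 20, against 13.6%. The GC-box GGGCGG was in 14 of the 20, against 35.7%. No sites of different motifs overlapped in these windows. A match describes letters in the window and does not show binding.

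The windows printed here are those of an abundant adhesion gene, a claudin, the most abundant member, a gene with both kinds of motif, and the member farthest from a ratio of 1. Each runs from 5′ to 3′ on the strand of its gene, and capitals mark E2-boxes and, in Sfn, also the Grainyhead-like match that comes first. No capitals stand in the Bnc1 window.
Epcam, chr17:87635729-87636028, plus strand: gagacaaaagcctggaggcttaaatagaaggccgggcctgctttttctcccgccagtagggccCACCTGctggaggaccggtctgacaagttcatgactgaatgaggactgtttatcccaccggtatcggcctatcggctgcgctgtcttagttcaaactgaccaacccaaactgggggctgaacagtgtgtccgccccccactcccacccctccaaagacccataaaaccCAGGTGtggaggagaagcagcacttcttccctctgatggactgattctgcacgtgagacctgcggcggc
Cldn4, chr5:134946885-134947184, minus strand: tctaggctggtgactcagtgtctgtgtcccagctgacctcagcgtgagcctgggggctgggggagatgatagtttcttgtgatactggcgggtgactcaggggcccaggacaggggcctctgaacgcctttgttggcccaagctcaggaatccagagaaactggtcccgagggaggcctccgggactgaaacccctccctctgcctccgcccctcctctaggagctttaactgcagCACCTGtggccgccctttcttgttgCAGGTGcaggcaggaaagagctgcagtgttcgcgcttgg
Spint2, chr7:29281928-29282227, minus strand: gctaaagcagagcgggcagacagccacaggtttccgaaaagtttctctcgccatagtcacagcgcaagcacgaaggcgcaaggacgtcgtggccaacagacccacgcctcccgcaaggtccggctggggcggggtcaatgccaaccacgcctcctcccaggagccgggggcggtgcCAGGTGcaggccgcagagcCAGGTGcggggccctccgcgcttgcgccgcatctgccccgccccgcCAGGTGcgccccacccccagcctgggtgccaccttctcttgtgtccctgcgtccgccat
Sfn, chr4:133602119-133602418, minus strand: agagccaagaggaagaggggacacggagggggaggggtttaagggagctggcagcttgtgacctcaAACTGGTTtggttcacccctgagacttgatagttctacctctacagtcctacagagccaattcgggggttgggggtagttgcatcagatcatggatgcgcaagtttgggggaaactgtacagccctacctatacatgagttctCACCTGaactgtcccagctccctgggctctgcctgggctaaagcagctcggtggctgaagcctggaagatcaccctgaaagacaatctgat
Bnc1, chr7:81992250-81992549, minus strand: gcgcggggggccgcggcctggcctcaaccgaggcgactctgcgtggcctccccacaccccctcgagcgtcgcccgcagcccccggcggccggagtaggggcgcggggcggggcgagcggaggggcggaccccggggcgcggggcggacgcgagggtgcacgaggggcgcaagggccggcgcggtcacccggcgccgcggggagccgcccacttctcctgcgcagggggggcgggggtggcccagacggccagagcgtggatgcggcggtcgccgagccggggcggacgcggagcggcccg
Epcam and Cldn4 each hold E2-boxes on both strands, one of them within 20 bases before the start. Spint2 holds 3, all on the opposite strand. Bnc1 holds none, and its window is the most GC-rich of the 20, at 83.3% with 50 CG pairs, against medians of 59.8% and 12 over the member windows. Among the genes with an E2-box, ratios below 1 were those of Cldn7 (0.878), Cldn6 (0.906), Dsp (0.926), Epcam (0.930), Sfn (0.931), Cldn4 (0.950) and Rab25 (0.958). Grhl3 had 1.04, Spint2 1.09 and Cldn3 1.38, and Elf3 was under the level filter. Only the counting interval of Dsp excluded 1. Whether the E2-box bears on the ratios was not tested. The 4 repressors, known as mesenchymal factors, had ratios of 0.933 for Snai1, 0.897 for Snai2, 1.04 for Zeb1 and 0.960 for Zeb2. Of their counting intervals, only that of Snai2 (0.819 to 0.983) excluded 1. Snai1 had 21.2 FPKM in the mutant and 22.7 FPKM in the control library, and Snai2 had 21.4 FPKM in the mutant and 23.8 FPKM in the control library. Zeb1 had 21.1 FPKM in the mutant and 20.4 FPKM in the control library, and Zeb2 had 7.96 FPKM in the mutant and 8.29 FPKM in the control library.

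The cadherins and Epcam came close to equal in both libraries. Cdh1 encodes E-cadherin, the cadherin of epithelial adherens junctions (NM_009864, mm9 chromosome 8, 109127268 to 109194146). It had 10.4 FPKM in the mutant and 11.7 FPKM in the control library, a ratio of 0.888 (0.814 to 0.970). Its neighbour Cdh3, which encodes P-cadherin of basal epithelial cells, had 15.6 FPKM in the mutant and 14.9 FPKM in the control library, a ratio of 1.05. The interval of its ratio of reads ran from 0.968 to 1.15 and barely overlapped that of Cdh1, and the difference between these cadherins was not tested. Epcam, a surface adhesion protein found on most simple and developing epithelia (chromosome 17, 88035319 to 88050467), had 10.6 FPKM in the mutant and 11.4 FPKM in the control library, a ratio of 0.930 (0.816 to 1.06). All 3 were far below the mesenchymal cadherin Cdh11, which had 84.9 FPKM in the mutant and 85.5 FPKM in the control library.

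Desmosome genes were mostly slightly lower, with 5 of 7 below 1 and a median ratio of 0.926. Perp, a membrane protein of desmosomes and a p63 target, was the most abundant, at 16.7 FPKM in the mutant and 18.3 FPKM in the control library, a ratio of 0.911 (0.819 to 1.01). Jup, which encodes plakoglobin, had 13.7 FPKM in the mutant and 13.4 FPKM in the control library, a ratio of 1.02 (0.947 to 1.10). Dsp, which encodes desmoplakin, had the most reads of all members, about 1964 in the mutant and 1731 in the control library. Its levels were 8.86 FPKM in the mutant and 9.57 FPKM in the control library, a ratio of 0.926 (0.868 to 0.989). The plakoglobin and desmoplakin intervals overlap in part, and the difference between these abundant components was not tested.

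The desmosomal cadherins lay on opposite sides of 1. Dsg2, desmoglein of simple and basal epithelia and also of heart muscle, had 5.72 FPKM in the mutant and 5.14 FPKM in the control library, a ratio of 1.11 (0.997 to 1.24). Dsc2, the desmocollin with a similarly wide range, had 3.39 FPKM in the mutant and 4.22 FPKM in the control library, a ratio of 0.804 (0.690 to 0.934). These counting intervals do not overlap, although both genes belong to the same cluster of desmosomal cadherin genes. Of the plakophilins, Pkp1 had 1.22 FPKM in the mutant and 1.48 FPKM in the control library, a ratio of 0.829 (0.643 to 1.07). Pkp3 had 2.85 FPKM in the mutant and 2.86 FPKM in the control library, a ratio of 0.996.

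Other genes of desmosomes and hemidesmosomes, which attach basal cells to the basement membrane, were measured for 9 of 15 listed, with 6 lower and 3 higher and a median ratio of 0.939. Of these, 3 were at least 1.2-fold lower (33.3%, against 5.12% of all measured genes) and 0 were at least 1.2-fold higher (against 6.99%). The 3 were Dsc3 at 0.675, Itgb4 at 0.747 and Evpl at 0.792, all with a mean under 5 FPKM. At a mean of at least 5 FPKM, Dst, which encodes dystonin, had 5.66 FPKM in the mutant and 4.96 FPKM in the control library, a ratio of 1.14. Pkp4 had 0.913, the integrin gene Itga6 0.939 and Col17a1, a hemidesmosomal collagen, 0.993.

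Claudins made up all 5 measured tight junction genes; 4 lay below a ratio of 1 and 1 above it, and their median was 0.950. Cldn1, a claudin of stratified barriers, was the most abundant at 17.5 FPKM in the mutant and 17.6 FPKM in the control library, a ratio of 0.998 (0.921 to 1.08). Cldn6, a claudin of embryonic epithelia, had 9.01 FPKM in the mutant and 9.95 FPKM in the control library, a ratio of 0.906 (0.769 to 1.07). Cldn4 had 6.52 FPKM in the mutant and 6.86 FPKM in the control library, a ratio of 0.950 (0.794 to 1.13). The intervals of these 3 claudins all include 1. Cldn7, which binds Epcam, had 4.32 FPKM in the mutant and 4.92 FPKM in the control library, a ratio of 0.878, while its ratio of reads was 0.960 (0.743 to 1.252). Cldn3 had 1.47 FPKM in the mutant and 1.07 FPKM in the control library, a ratio of 1.38 whose interval of 0.839 to 2.40 is wide because it rests on about 43 reads in the mutant and 25 in the control library. The Cldn3 model overlaps that of Wbscr25, and reads from the shared stretch may belong to either gene. Marveld3, a tight junction protein with MARVEL domains, was under the level filter, at 0.472 FPKM in the mutant and 0.445 FPKM in the control library.

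Of the other tight junction genes listed, 11 of 21 were measured. Higher in the mutant library were 7 and lower 4, the median ratio was 1.04, and none was past 1.2-fold in either direction. Cgnl1, which encodes paracingulin, had 9.97 FPKM in the mutant and 11.9 FPKM in the control library, a ratio of 0.840 (0.782 to 0.902). Cxadr, a junction-associated adhesion protein, had 10.7 FPKM in the mutant and 9.54 FPKM in the control library, a ratio of 1.12. Cldn12 and Lsr had ratios of 1.08 and 0.931. Several of these genes, such as Tjp1 with 22.0 FPKM in the mutant and 21.9 FPKM in the control library, are also used outside epithelium.

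Pvrl4, the nectin of developing epithelium, had 2.05 FPKM in the mutant and 2.37 FPKM in the control library, a ratio of 0.868. Among 9 measured genes of adherens junctions and nectins that are not members, 6 were lower and 3 higher, with a median ratio of 0.946. Pvrl2 and Pvrl3, nectins with wider expression, had ratios of 0.864 and 0.870, and the afadin gene Mllt4, whose model overlaps Tcte2, had 0.935. Cdh4, which encodes R-cadherin and is not confined to epithelium, had 7.41 FPKM in the mutant and 10.1 FPKM in the control library, a ratio of 0.737 (0.678 to 0.801). The catenin genes Ctnna1, Ctnnb1 and Ctnnd1, shared by all cells with cadherin adhesion, had ratios of 0.982, 1.03 and 1.02.

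**Figure D2:**
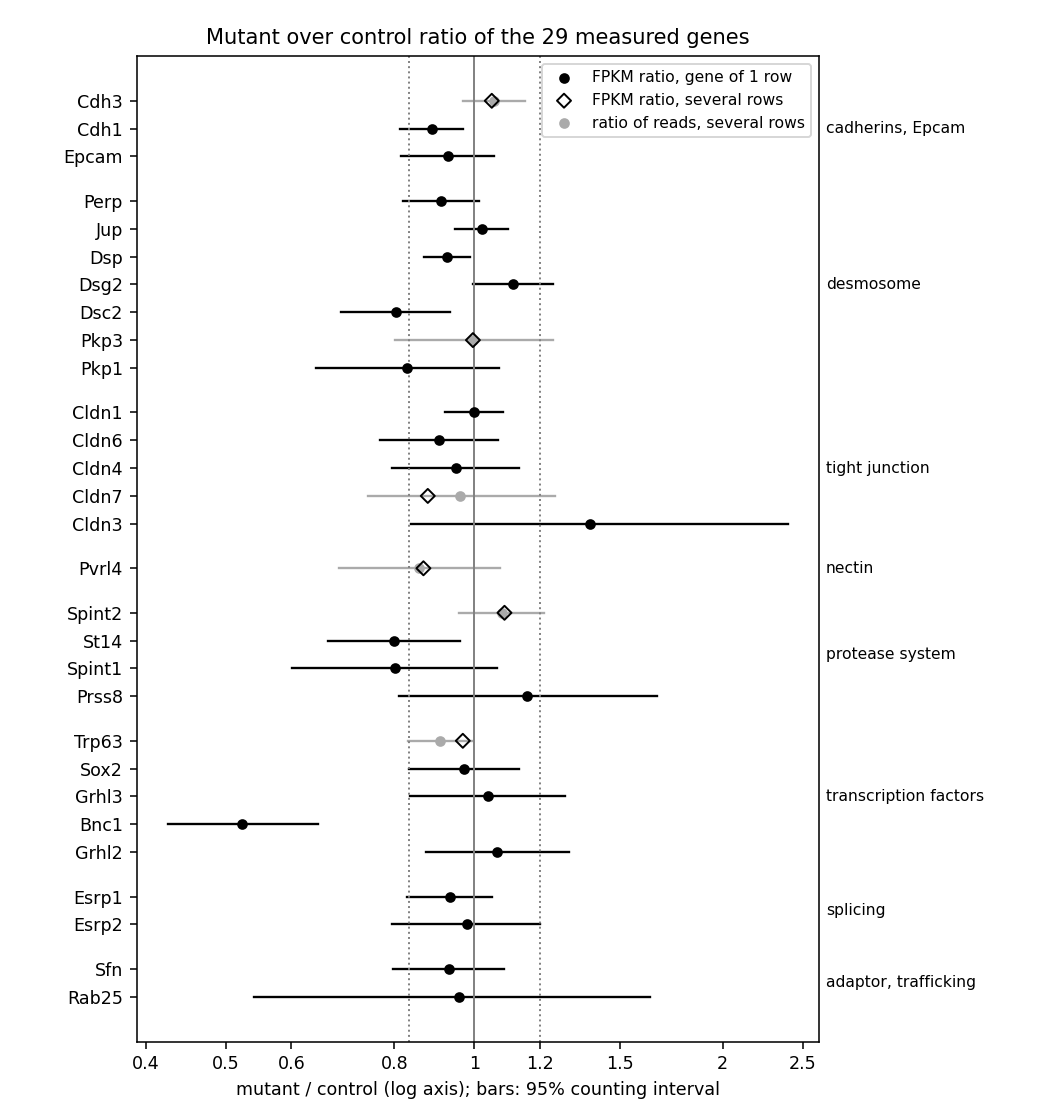
Mutant over control ratio of the 29 measured genes on a log axis, grouped by role, with bars for the 95% counting interval, a solid line at 1 and dotted lines at 1.2-fold in either direction. For genes of several transcript rows the open diamond is the FPKM ratio, and the grey point and bar are the ratio of reads. Bnc1 stands apart at 0.524, and most other intervals include 1.

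In the membrane protease system 2 genes were lower and 2 higher, with an enzyme and an inhibitor on each side. St14 encodes matriptase, a transmembrane serine protease (NM_011176, mm9 chromosome 9, 30896175 to 30939384). It had 2.52 FPKM in the mutant and 3.16 FPKM in the control library, a ratio of 0.799 (0.665 to 0.961). Prss8 encodes prostasin, the protease that acts together with matriptase, and had 1.82 FPKM in the mutant and 1.57 FPKM in the control library, a ratio of 1.16 (0.810 to 1.67) from about 78 reads in the mutant and 55 in the control library. The Prss8 model overlaps that of Myst1. Spint1 encodes the inhibitor HAI-1 and had 1.89 FPKM in the mutant and 2.36 FPKM in the control library, a ratio of 0.801 (0.600 to 1.07). Spint2 encodes the inhibitor HAI-2, which is expressed more widely, and was the most abundant of all members at 22.0 FPKM in the mutant and 20.2 FPKM in the control library, a ratio of 1.09. Matriptase and its inhibitor HAI-1 had nearly equal ratios, and prostasin and HAI-2 were on the other side of 1. The intervals of Prss8, Spint1 and, for its ratio of reads, Spint2 (0.958 to 1.21) include 1. For these genes the side of 1 is therefore within counting error. Of 11 other epithelial proteases and related genes listed, 3 were measured, and none reached a mean of 5 FPKM.

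Among the transcription factors, Bnc1 stood apart. Bnc1 encodes basonuclin 1, a zinc finger protein of the basal cells of stratified epithelia and of germ cells (NM_007562, mm9 chromosome 7, 89111548 to 89137185). It had 1.401 FPKM in the mutant and 2.675 FPKM in the control library, from about 151 reads in the mutant and 235 in the control library. The ratio was 0.524 (0.425 to 0.646), and only 50 of the 12178 measured genes had a lower one. The gene has a single transcript row and no overlapping model. Its interval also lay below the median ratio of the members, 0.950.

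The other measured factors of the list were nearly equal in FPKM between the libraries. Trp63, which encodes p63, the regulator of stratified epithelium (chromosome 16, 25683851 to 25892174), had 11.2 FPKM in the mutant and 11.5 FPKM in the control library, a ratio of 0.968. Sox2, a factor of lingual epithelium and taste progenitors that is also expressed in neural and glial cells, had 6.52 FPKM in the mutant and 6.71 FPKM in the control library, a ratio of 0.972 (0.833 to 1.13). It lies within the model of Sox2ot. Grhl3, the Grainyhead-like factor of barrier formation, had 3.09 FPKM in the mutant and 2.98 FPKM in the control library, a ratio of 1.04 (0.836 to 1.29). Grhl2, which maintains Cdh1 and claudin expression in epithelia, had 2.06 FPKM in the mutant and 1.93 FPKM in the control library, a ratio of 1.06 (0.874 to 1.30). Thus 4 of the 5 measured factors lay within a range of FPKM ratios from 0.968 to 1.06. The ratio of reads of Trp63, a gene of several rows, was lower, at 0.910 (0.832 to 0.994). Below the filter, Grhl1 had 0.610 FPKM in the mutant and 0.566 FPKM in the control library, Ovol1 had 0.532 FPKM in the mutant and 0.466 FPKM in the control library, and Elf3 had 0.783 FPKM in the mutant and 0.613 FPKM in the control library. Each of these was higher in the mutant library by less than its counting error, from between 22 and 49 reads.

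The rows of Trp63 separate its main promoters. The upstream start, at 25683851 on mm9, gives TAp63 transcripts with an activation domain, and the internal start, 118151 bases downstream, gives deltaNp63, the form of basal epithelial cells. Summed over 5 rows, transcripts of the internal start had 10.5 FPKM in the mutant and 10.7 FPKM in the control library, which is 94.1% of the gene in the mutant and 93.1% in the control library. The 3 rows of the upstream start had 0.664 FPKM in the mutant and 0.792 FPKM in the control library, from about 48 reads in the mutant and 80 in the control library. In both libraries the deltaN form therefore made up most of the estimated RNA. The upstream value was placed on different rows in the libraries, mostly on NM_001127261 in the mutant (0.497 FPKM) and on NM_001127259 in the control (0.792 FPKM). These rows are 2379 and 5352 bases long, so the upstream FPKM values lie closer together than the reads do, and no difference was read from them. For the gene as a whole the ratio of approximate reads was 0.910 (0.832 to 0.994), where the FPKM ratio was 0.968.

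Of the epithelial factors that are not members, 12 of 20 listed symbols were measured (3 listed symbols had no row). Lower were 11 and higher 1, and the median ratio was 0.911. Tcfap2c, which encodes the AP-2 gamma factor of surface ectoderm and neural crest, had 5.52 FPKM in the mutant and 8.01 FPKM in the control library, a ratio of 0.689. Klf4, a factor of differentiating epithelium, had a ratio of 0.885 (0.780 to 1.004), and Pitx1 had 0.968 (0.912 to 1.03). AP-2 and Klf factors are also expressed in mesenchyme, so this list is not limited to epithelial RNA.

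The splicing regulators Esrp1 and Esrp2, RNA-binding proteins that set epithelial splice forms, had nearly equal levels in both libraries. Esrp1 had 6.71 FPKM in the mutant and 7.19 FPKM in the control library, a ratio of 0.933 (0.829 to 1.05). Esrp2 had 3.36 FPKM in the mutant and 3.43 FPKM in the control library, a ratio of 0.979 (0.794 to 1.203). Sfn, which encodes the epithelial adaptor 14-3-3 sigma, had 9.44 FPKM in the mutant and 10.1 FPKM in the control library, a ratio of 0.931 (0.796 to 1.09). Rab25, a small GTPase of apical recycling, had 1.28 FPKM in the mutant and 1.33 FPKM in the control library, a ratio of 0.958 (0.541 to 1.63) from about 31 reads in the mutant and 27 in the control library. All 4 lay below 1 by less than their counting error.

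Several members have more than 1 transcript row, and the division among rows differed between the libraries more than the sums did. Elf3 had all but a trace of its FPKM on NM_001163131 in the mutant library (0.782 FPKM) and on NM_007921 in the control library (0.613 FPKM). Pvrl4 had 1.22 FPKM on NM_001122680 in the mutant library, against 0.00203 FPKM in the control library. On its row NM_027893 it had 0.831 FPKM in the mutant library, against 2.36 FPKM in the control library. In both genes the rows share their start and end and differ little in length. Cldn7 had 4.32 FPKM on NM_016887 in the mutant library, against 3.21 FPKM in the control library. Its row NM_001193619 held a trace in the mutant library, against 1.71 FPKM in the control library. These divisions are estimates, the files give no interval for them, and no isoform difference was read from them. The less abundant row of Spint2, NM_011464, held 1.63% of the gene in the mutant and 7.78% in the control library.

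**Figure D3:**
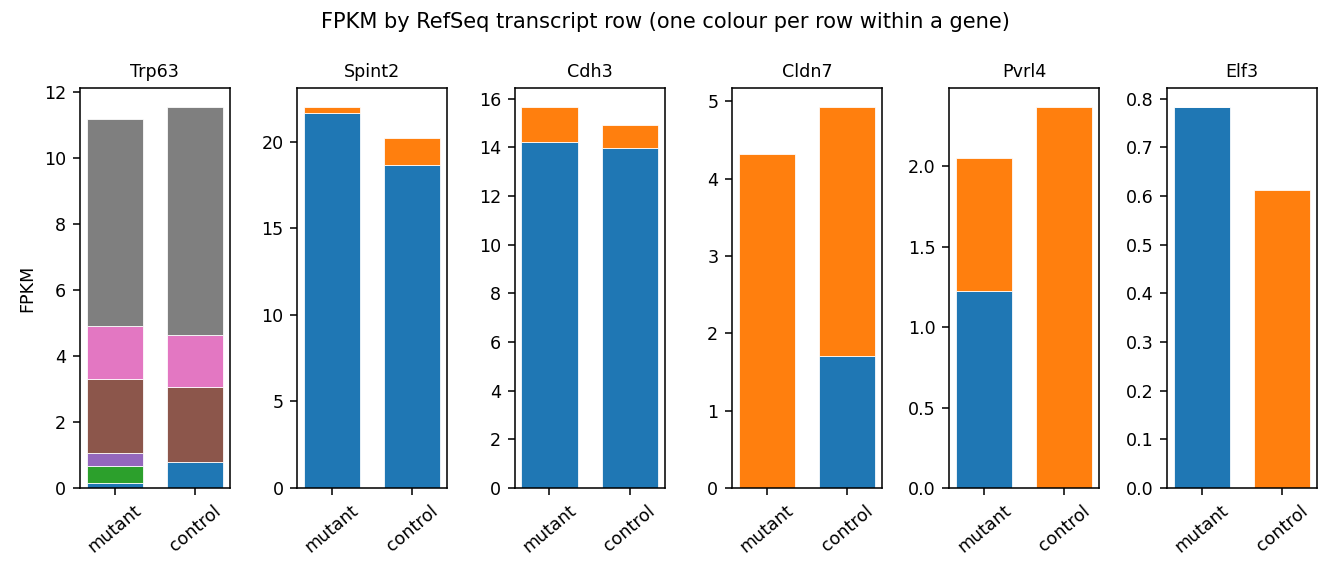
FPKM of 6 members by transcript row, with the mutant library on the left and the control library on the right in each panel, and with a colour per row within a gene. The division among rows differs most between the libraries in Elf3, Pvrl4 and Cldn7.

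Keratins are the filament proteins to which desmosomes attach. Of 8 measured, 7 had a lower level in the mutant library and 1 a higher one, and the median ratio was 0.905. Krt5 had 23.6 FPKM in the mutant and 29.7 FPKM in the control library, a ratio of 0.796 (0.734 to 0.863). Krt14 and Krt15, which like Krt5 belong to basal cells, had ratios of 0.848 and 0.853, and Krt8, of simple epithelium and periderm, had 1.13 (0.958 to 1.34). Over all epithelial lists without members or keratins, 35 of 53 measured genes were lower, with a median ratio of 0.946. That is 66.0% lower, against 72.4% of the members and 48.9% of all measured genes. Of the remaining epithelial genes of these lists, Shh, whose model overlaps 9530036O11Rik, had 5.04 FPKM in the mutant and 6.65 FPKM in the control library, a ratio of 0.757 (0.645 to 0.884). Krtcap3 had 1.27 (0.958 to 1.70) and Fras1, a basement membrane protein, 1.11 (1.04 to 1.19).

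**Figure D4:**
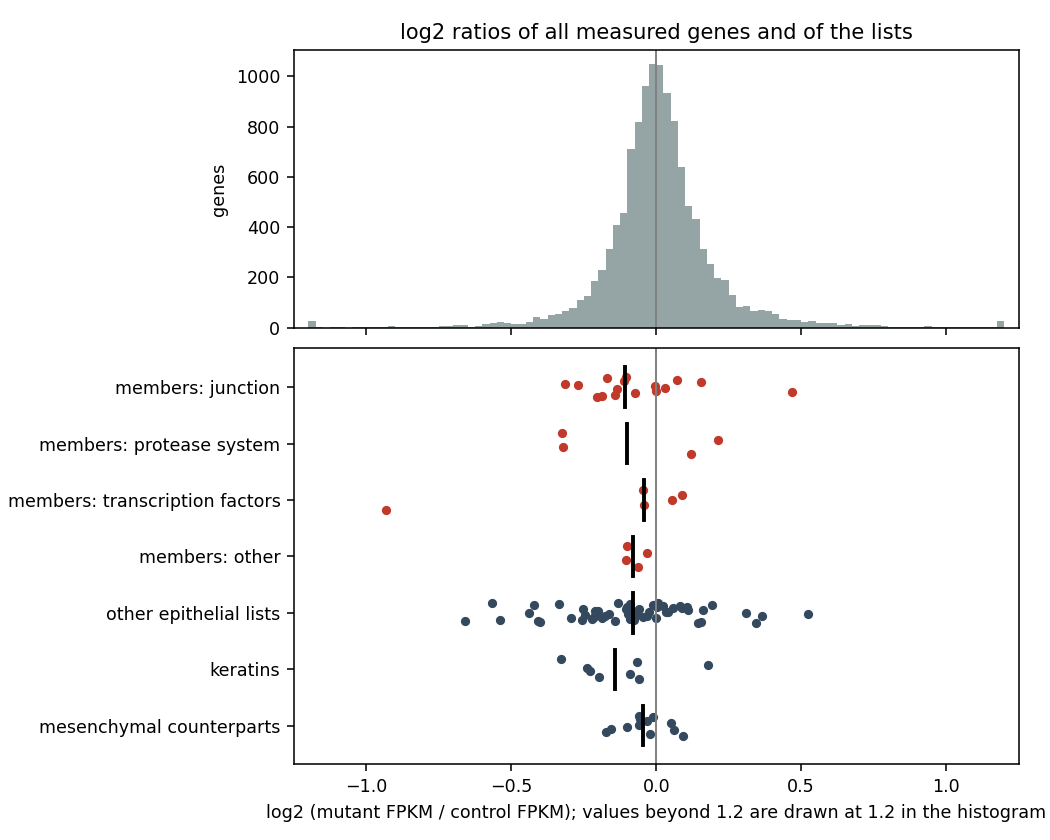
Top, number of measured genes by log2 ratio of mutant over control FPKM. Bottom, the log2 ratio of each measured gene of the member groups in red and of the other lists in dark blue, with a black bar at the median of each group. All junction genes, the nectin Pvrl4 included, are drawn as 1 group, and the splicing, adaptor and trafficking genes as another. The medians of the 4 member groups drawn lie between −0.11 and −0.04, left of 0 and within the bulk of all genes, and Bnc1 is the red point farthest to the left.

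Markers of the cells around the epithelium gave the following background. Of mesenchymal counterparts such as Vim, Fn1 and Twist1, 9 of 12 were below a ratio of 1 and 3 above it. Their median was 0.970 and their range 0.887 to 1.07. Twist2 and Pdgfra had ratios of 0.887 and 1.07. The share lower, 75.0%, was thus not smaller than that of the epithelial genes, although none of the 12 was past 1.2-fold. A separate list of 6 mesenchyme markers, which shares genes with these 12, had 3 lower and 3 higher. Its median ratio was 1.01 and its range 0.901 to 1.27, so the share lower depended on the list. The 6 muscle markers, 3 lower and 3 higher, summed to 468 FPKM in the mutant and 442 FPKM in the control library. The 6 endothelial markers, 2 lower and 4 higher, summed to 61.0 FPKM in the mutant and 57.1 FPKM in the control library. All 5 measured erythroid markers were lower, and the 6 listed summed to 1072 FPKM in the mutant and 1314 FPKM in the control library. The 6 neuron markers summed to 12.7 FPKM in the mutant and 19.2 FPKM in the control library, but of the 4 measured 2 were lower and 2 higher. The lower ones were Snap25, with 0.239 FPKM in the mutant and 3.45 FPKM in the control library, and Tubb3, with 3.16 FPKM in the mutant and 6.33 FPKM in the control library. Of 4 measured glial markers 3 were lower and 1 higher, and the 5 listed summed to 23.1 FPKM in the mutant and 27.0 FPKM in the control library. All 5 measured macrophage markers were higher, and the 6 listed summed to 21.9 FPKM in the mutant and 18.3 FPKM in the control library. Of 5 listed markers of pharyngeal and lung endoderm, another epithelium that a dissection could hold, 2 were measured. Both were lower, Foxa1 with a ratio of 0.999 and Foxa2 with 0.816. The 5 listed summed to 8.96 FPKM in the mutant and 8.88 FPKM in the control library. That sum includes Nkx2-1, under the level filter at 0.853 FPKM in the mutant and 0.295 FPKM in the control library. Pax8 was listed at 0 in the control library. The 6 listed markers of periderm and stratified skin summed to 4.22 FPKM in the mutant and 4.32 FPKM in the control library. Only 1 of these, Krt10, was measured. How far the cell composition of the dissected tongues takes part in the ratios of the epithelial genes was not tested.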

How the data were processed

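Genotype labels set the groups: 1 mutant and 1 control library of embryonic tongue, with amplified cDNA (NuGEN Ovation), per the labels' protocols. Alignment tools named are TopHat 1.4.1 and Bowtie 0.12.7, with mm9, per the submitters' processing notes. The authors deposited FPKM for each RefSeq transcript in a Cufflinks-style table. The deposited coverage, a signal per transcript, grows with sequencing depth. Neither the quantifier's version nor its use of strand is given in the sources used here. Reads of overlapping models were divided by estimation.

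FPKM was summed per symbol. Of 22072 symbols, 12178 had a mean of at least 1 FPKM with status OK in all rows, and 92 others of that level were left out for their status. No pseudocount was added to ratios. Coverage times length clustered at 47.4 bases in genes of 1 row of at least 1000 bases, taken as 1 read, which gave approximate reads and exact conditional (Clopper-Pearson) 95% intervals. At 1 kb, 3 reads equal 0.130 FPKM in the mutant and 0.159 FPKM in the control library. In genes of several rows the interval is that of the ratio of reads. Deposited starts count from 0 and are given here from 1. The interval method was tested on simulated reads that vary by counting error alone, without amplification or variation between libraries. That test does not show how the intervals cover any other error. Promoter windows are RefSeq's, on GRCm38.p6.

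Every member was named, with full values for the most abundant of each role and for those past 1.2-fold, and up to 4 genes of each other list by size of ratio at a mean of at least 5 FPKM. Tjp1, Ctnna1, Ctnnb1, Ctnnd1, Cdh11, Zeb1, Zeb2, Snap25, Tubb3 and the genes of the closing observations were named beside that rule, after their values were seen, and 1 gene that the rule names is not reported here. Members and lists were chosen with earlier results of these data known. Python 3.11.15, numpy 2.4.6, pandas 2.3.3 and scipy 1.17.1 were used.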

Additional observations from a re-analysis of the deposited data

How the results depend on the processing

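With 9 alternatives, the median log2 ratio of the measured members stayed between −0.10 and −0.05, against −0.07 as reported, and that of the junction genes between −0.11 and −0.09. The medians of the small groups changed sign. That of the transcription factors was 0.07 without a filter on low values and 0.00 without overlapping models, and that of the protease group was 0.12 at a mean of at least 5 FPKM, where Spint2 was the only one left, and −0.32 without overlapping models. The number of members lower in the mutant library was 20 or 21 of 29 wherever the same genes were kept. It was 21 of 33 without a filter, 20 of 26 without overlapping models and 11 of 15 at a mean of at least 5 FPKM. The shares of all genes lower under these settings, in the same order, were 49.6%, 48.6% and 50.2%. The number at least 1.2-fold lower was 1 (Bnc1) with a pseudocount of 1 FPKM and 0 at a mean of at least 5 FPKM, because those genes have low values. The number at least 1.2-fold higher was 2 without a filter and with the highest row of each gene, and 0 with a pseudocount of 1 FPKM, at a mean of at least 5 FPKM and without overlapping models. The ratio of Bnc1 was 0.653 with a pseudocount of 1 FPKM. With the highest row in place of the sum, Cldn7 had 1.34, Pvrl4 0.351, Dst 1.05 and Pkp4 1.12, so ratios of single rows are not used. Rescaling to equal totals put Cldn1 at 1.001. The approximate reads rest on 1 read length and are not counts. No paired analysis was possible because each genotype has 1 library.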

Other observations

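Several epithelial genes outside the members and outside the rule for named genes had ratios farther from 1 than most members, and they were chosen after their values were seen. Dsc3, the desmocollin of basal stratified epithelium, had 1.85 FPKM in the mutant and 2.73 FPKM in the control library, a ratio of 0.675 (0.562 to 0.806). Evpl, which encodes the desmosomal plakin envoplakin, had 1.47 FPKM in the mutant and 1.86 FPKM in the control library, a ratio of 0.792 (0.656 to 0.962). Itgb4, the integrin of hemidesmosomes, had 2.36 FPKM in the mutant and 3.16 FPKM in the control library, a ratio of 0.747, and its model overlaps that of Galk1. Wnt6, a WNT ligand of surface epithelium, had 3.59 FPKM in the mutant and 5.66 FPKM in the control library, a ratio of 0.633 (0.514 to 0.775). Not all epithelial genes of this level shared that direction. Klf5, a factor of proliferating epithelium, had 5.48 FPKM in the mutant and 4.26 FPKM in the control library, a ratio of 1.29 (1.03 to 1.60), and Ppl, which encodes periplakin, had 1.29 FPKM in the mutant and 1.28 FPKM in the control library. Tmprss11a, a membrane protease, had 0.071 FPKM in the mutant and 0.437 FPKM in the control library, both under the level filter. Nkx2-1, a factor of thyroid and lung endoderm, had 0.853 FPKM in the mutant and 0.295 FPKM in the control library.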
